A study of Mus musculus with 12 samples.

Results

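The 10 genes described here encode enzymes of purine and pyrimidine nucleotide synthesis: Ppat, Paics, Pfas, Adsl, Impdh1, Impdh2, Cad, Dhodh, Umps and Ctps. They were taken by gene symbol from a count table of 49315 mouse genes, and each of the 10 symbols matched 1 row. RNA came from epididymal white adipose tissue (eWAT) of male mice that all received a diet with 60% fat for 12 weeks. Flox mice (miR-181a2b2flox/flox) carry floxed copies of the gene pair for the microRNAs Mir181a-2 and Mir181b-2, carried no Cre and served as the controls, and KO mice (miR-181a2b2-/-) lack that pair in every tissue. Mice of each genotype were injected once a week into the peritoneum with vehicle or with methotrexate (MTX) at 1 mg/kg, which gave 4 groups of 3 mice with 1 library per mouse: flox vehicle, KO vehicle, flox MTX and KO MTX. Because the deletion was systemic and whole tissue was sequenced, no value belongs to a single cell type, and the ages of the mice are not given in the sources used here. Of the targeted genes, Mir181a-2 had 2 counts in flox MTX replicate 4 and 0 in the other 11 libraries, and Mir181b-2 had 0 in all 12, which allows up to 3 counts per library and cannot check the deletion.

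Cells make purines by building the ring stepwise on ribose phosphate, which yields IMP, the precursor of both adenine and guanine nucleotides. Pyrimidines are made the other way round, since the ring is closed first and joined to ribose phosphate later, and the end product UMP gives rise to UTP and CTP. Dividing cells depend on both routes, while resting tissue covers much of its need by salvage of free bases and nucleosides. MTX is a folate antagonist: it blocks dihydrofolate reductase and thymidylate synthesis, and its polyglutamated forms block the folate-dependent step of purine synthesis run by Atic, which lies just after the steps of Paics and Adsl.

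Ppat and Paics lie head to head on chromosome 5, in the GRCm38 annotation of GENCODE, Ppat at chr5:76913249-76951578 on the minus strand and Paics at chr5:76951307-76967509 on the plus strand. Their exons share 272 bases on opposite strands. Whether the authors counted by strand is not stated, so reads from that shared stretch cannot be assigned with certainty. RefSeq promoter windows, from 250 bases before to 50 bases after the annotated start, were found for 8 of the 10 genes (10 windows on GRCm38.p6). Pfas and Dhodh had no window and were not searched. The windows of the paired genes are shown because Ppat was called in 2 comparisons and its neighbour Paics in none, and that of Cad (chr5:31054780-31078479, plus strand) because it varied most. Each is written 5′ to 3′ on the strand of its gene, and capitals mark the E-box letters CACGTG, the core bound by MYC and MAX, which read the same on both strands.
Paics, chr5:76951052-76951351, plus strand: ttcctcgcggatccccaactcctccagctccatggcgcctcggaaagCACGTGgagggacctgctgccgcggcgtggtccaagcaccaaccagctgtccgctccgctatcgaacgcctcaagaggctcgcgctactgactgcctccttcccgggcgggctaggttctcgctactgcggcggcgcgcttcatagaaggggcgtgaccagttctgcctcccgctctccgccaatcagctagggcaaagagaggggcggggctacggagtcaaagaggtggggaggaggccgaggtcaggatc
Ppat, chr5:76951529-76951828, minus strand: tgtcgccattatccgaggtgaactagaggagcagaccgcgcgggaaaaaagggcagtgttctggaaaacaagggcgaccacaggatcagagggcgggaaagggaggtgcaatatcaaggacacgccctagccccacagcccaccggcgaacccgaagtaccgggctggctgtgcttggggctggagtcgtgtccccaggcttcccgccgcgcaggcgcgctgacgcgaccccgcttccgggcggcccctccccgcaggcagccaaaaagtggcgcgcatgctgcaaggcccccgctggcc
Cad, chr5:31054530-31054829, plus strand: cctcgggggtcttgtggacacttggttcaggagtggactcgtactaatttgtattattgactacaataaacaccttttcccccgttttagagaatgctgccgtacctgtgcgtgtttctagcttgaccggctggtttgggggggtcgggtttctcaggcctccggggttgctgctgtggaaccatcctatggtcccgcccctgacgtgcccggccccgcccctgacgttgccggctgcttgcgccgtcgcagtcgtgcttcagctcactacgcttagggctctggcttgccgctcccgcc
The Paics window holds 1 E-box, 203 bases before the start, and the Ppat and Cad windows hold none. By the GENCODE annotation the whole Paics window lies inside the Ppat gene, so this E-box does too and does not set the 2 genes apart. Among the 8 genes with a window, Impdh2 is the only other with this motif, 110 bases before the RefSeq start of its window. The GENCODE start of Impdh2 lies further upstream, so by that annotation the motif falls inside the gene. CACGTG occurs in 7.15% of the 32851 promoter windows of the table. The GC box letters GGGCGG, searched on both strands, occur in 9 of the 10 windows against 35.7% of all windows, and the CCAAT box letters CCAAT in the windows of Paics and Impdh2 alone among them, against 37.4% of all. These matches describe letters in a window and not binding.

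All 10 enzymes were measured in every library and passed the filter on low counts. The depth was 19495310 to 23976469 counts per library (median 21824170), and the lowest count of any of the 10 was 128, for Ppat. Divided by exon length, Paics was the most abundant, with a median of 34.7 CPM (counts per 1000000 counts) per kb over the 12 libraries, above the medians of 92.6% of the 18702 genes tested. Impdh1 (18.1 CPM per kb) and Impdh2 (16.7) followed, and the ranges of these neighbours overlapped in all groups but flox MTX. Umps (7.11), Ctps (6.62), Adsl (4.79), Cad (3.34), Dhodh (2.74), Pfas (2.65) and Ppat (2.37) lay lower. Umps and Ctps overlapped in each of the 4 groups. In the flox vehicle group the order was another one, with Cad at 9.16 to 48.8 CPM per kb. There it lay above Umps, Ctps and Adsl, as well as Dhodh, Pfas and Ppat, in all 3 libraries. Between the lowest and the highest library, Cad varied 17.7-fold, Pfas 4.88-fold, Ppat 2.86-fold and Umps 2.67-fold, and the other 6 genes by 1.47-fold to 1.85-fold.

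The libraries differed in their content of transcripts from other tissues, which touches every comparison with the flox vehicle group. The summed level of 35 epididymis markers was 6779, 19588 and 2294 CPM in flox vehicle replicates 1, 3 and 4 and 687 CPM in flox MTX replicate 1, against 14.3 to 73.0 CPM in the other 8 libraries. Of these 35 genes, 22 to 30 were above 3 counts in a flox vehicle library and 10 to 23 in a flox MTX library. In KO libraries the numbers were 8 to 21 under vehicle and 6 to 13 under MTX. Crisp1, a secreted protein of the epididymis, read 1163 to 9191 CPM in the flox vehicle libraries, 399 CPM in flox MTX replicate 1 and at most 9.86 CPM elsewhere. A list of 17 testis germ cell genes summed to 269 to 700 CPM in the flox vehicle libraries and to 12.8 to 44.3 CPM in the other 9. Adipocyte markers such as Adipoq and Plin1 were abundant in all 12 libraries, but not evenly so. Under vehicle the 15 genes summed to 34903 to 75322 CPM in flox and 32212 to 52709 CPM in KO libraries. Under MTX they summed to 49448 to 85484 CPM in flox and 20854 to 40251 CPM in KO libraries, which did not overlap. The 20 macrophage markers summed to 991 to 1786 CPM in flox vehicle, 7595 to 14545 in KO vehicle, 1139 to 8841 in flox MTX and 10595 to 18497 in KO MTX libraries, and the 25 proliferation markers to 178 to 300, 523 to 810, 239 to 451 and 653 to 829 CPM in the same order. The 11 fibroblast markers summed to 2003 to 3744, 7393 to 11964, 3015 to 6757 and 7608 to 9833 CPM, and the 15 endothelial markers to 630 to 930, 1353 to 2034, 586 to 1067 and 928 to 1528 CPM. In whole tissue, fewer cells of a type and less RNA per cell cannot be told apart.

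**Figure D1:**
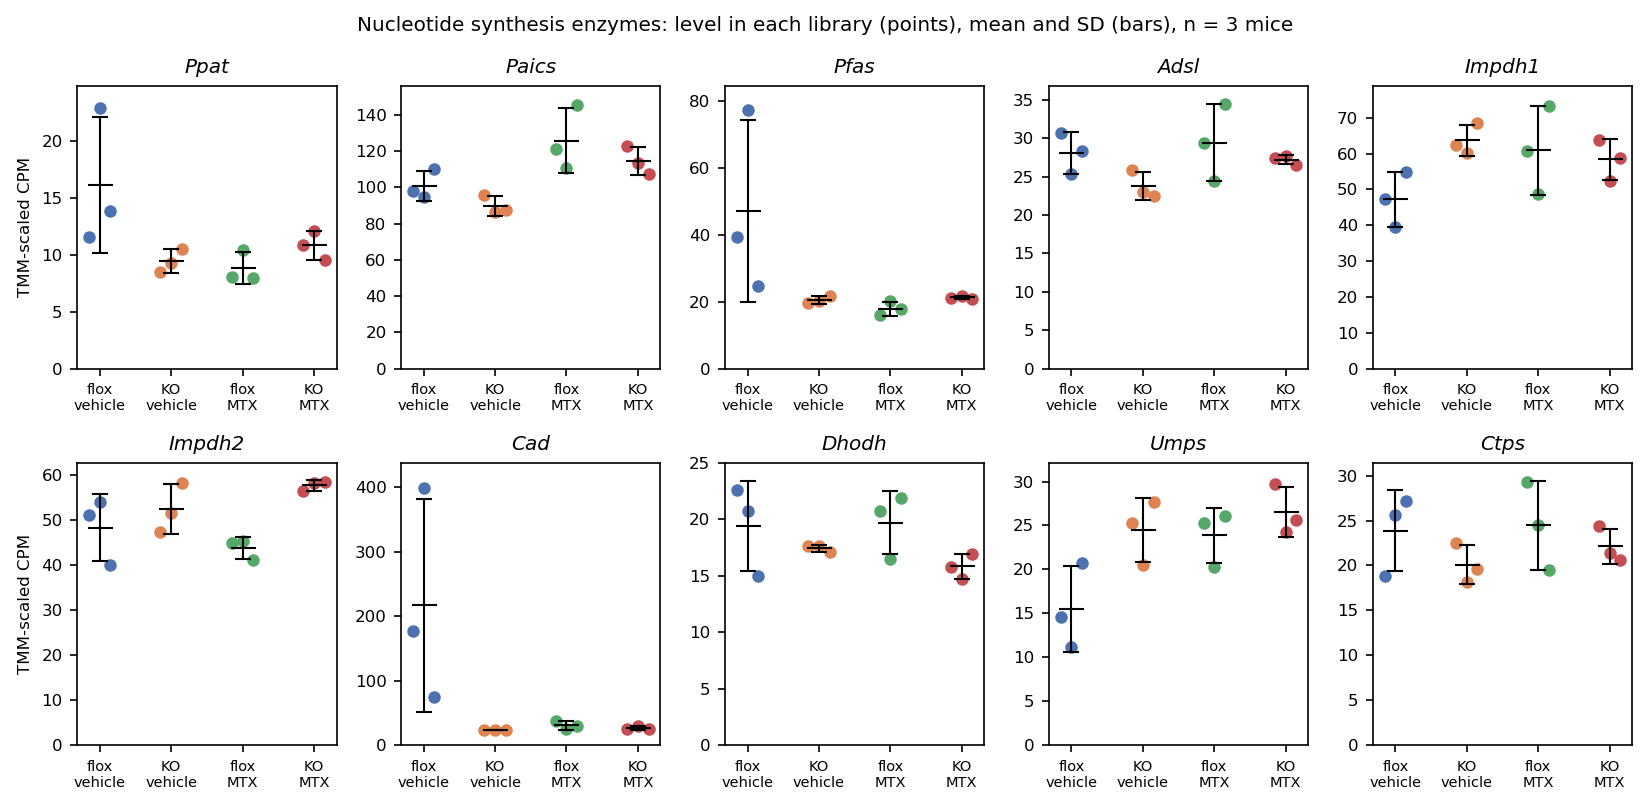
Level of each enzyme in TMM-scaled CPM (vertical axis, from 0, a scale of its own in each panel) in the 4 groups, with 1 point per library and bars for the mean and SD of 3 mice. Cad, Pfas and Ppat are highest and most spread in the flox vehicle group, Paics is higher in both MTX groups, and Umps is lowest in flox vehicle.

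Differences were tested with the quasi-likelihood F-test of edgeR over all 12 libraries, and a call needed an adjusted p (Benjamini-Hochberg) under 0.1 as well as a fold change of 1.5 or more. KO against flox under vehicle asks what the deletion does in obese fat. In this comparison Cad, Pfas and Ppat were lower and Umps was higher in KO mice, so that 4 of the 10 enzymes were called, against 31.7% of all genes tested (13.9% called higher and 17.8% called lower). The median log2 fold change of the 10 was -0.20, beside -0.06 for all genes. MTX against vehicle in flox mice asks what the drug does in control fat. The same 4 enzymes were called in the same directions, against 24.2% of all genes (8.08% called higher and 16.1% called lower), with a median of 0.03 beside 0.05. These comparisons share the 3 flox vehicle libraries, so the calls are not independent of each other. KO against flox under MTX gave 0 called enzymes with edgeR, as it gave 0% of all genes, 1 enzyme at an unadjusted p below 0.05 (24.5% of all genes) and 0 called by DESeq2, which called 14.8% of all genes. MTX against vehicle in KO mice gave 0 called enzymes with edgeR and 0% of all genes, 1 at an unadjusted p below 0.05 (7.98% of all genes) and 0 with DESeq2, which called 281 of the 18702 genes. The interaction, which asks whether MTX acts differently in the 2 genotypes, called Cad alone with edgeR, against 1.00% of all genes, while 3 enzymes had an unadjusted p below 0.05 (15.0% of all genes) and DESeq2 called Cad, Pfas and Ppat, against 6.67% of all genes.

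**Figure D2:**
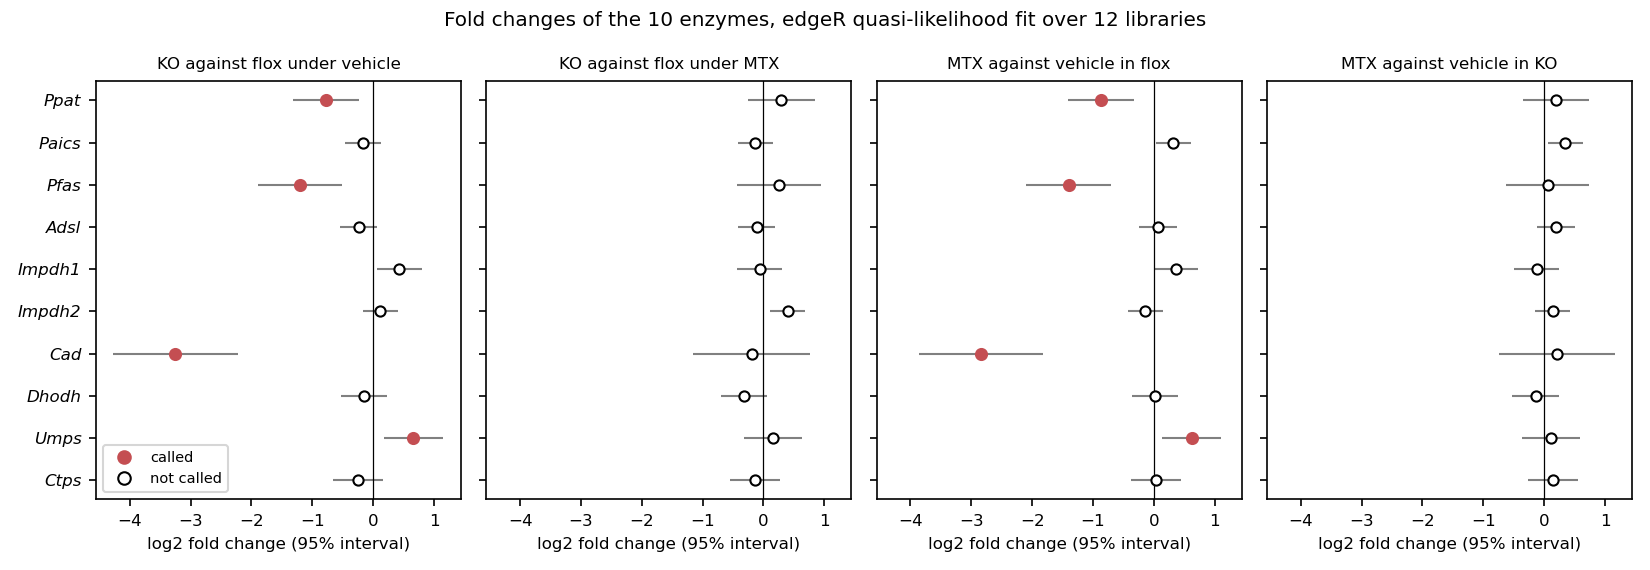
Log2 fold change of each enzyme (horizontal axis, 1 scale in all panels) in the 4 pairwise comparisons, with the 95% interval of the edgeR fit as a line and filled points for called genes. The called genes are Ppat, Pfas, Cad and Umps in both comparisons that use the flox vehicle libraries, and no gene is called in the other 2 panels.

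Ppat encodes the amidotransferase that commits ribose phosphate to purine synthesis. Values are given here and below in the order of replicates 1, 3 and 4 for flox vehicle, 1, 2 and 3 for KO vehicle, 1, 2 and 4 for flox MTX and 2, 3 and 4 for KO MTX. Ppat read 11.5, 22.9 and 13.9 CPM in flox vehicle, 8.51, 9.26 and 10.5 in KO vehicle, 8.02, 10.4 and 7.99 in flox MTX and 10.8, 12.1 and 9.56 in KO MTX libraries. The flox vehicle libraries lay above all KO vehicle and all flox MTX libraries, with replicate 3 far above its group. Ppat was 1.71-fold lower in KO than in flox mice under vehicle (log2 fold change -0.77 ± 0.25 SE, adjusted p = 0.0384 by edgeR) and 1.82-fold lower under MTX than under vehicle in flox mice (-0.87 ± 0.25, adjusted p = 0.0343 by edgeR). Under MTX the genotypes differed by 0.29 (95% interval -0.25 to 0.84), and in KO mice MTX and vehicle by 0.20 (-0.35 to 0.74). Without flox vehicle replicate 3 the first call was lost (-0.43, adjusted p = 0.152), as it was without KO vehicle replicate 1 (-0.67, 0.121) or 2 (-0.74, 0.1004), and the other call was lost without flox vehicle replicate 3 (-0.53, adjusted p = 0.142).

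Paics encodes the bifunctional enzyme that carboxylates the purine intermediate AIR and joins aspartate to it. Its levels were 97.8, 94.8 and 110 CPM in flox vehicle, 96.1, 86.2 and 87.3 in KO vehicle, 121, 111 and 146 in flox MTX and 123, 113 and 107 in KO MTX libraries. In each genotype, all 3 libraries of MTX-treated mice lay above all 3 of vehicle-treated mice, though in flox mice by a narrow gap that depended on the scaling: by library size alone the lowest flox MTX library (107 CPM) lay below the highest flox vehicle library (113 CPM). Between MTX and vehicle in flox mice, groups did not overlap for 4 of the 10 enzymes and for 28.4% of all genes. Of all genes tested, 10.9% had MTX libraries wholly above vehicle in flox mice and 11.1% in KO mice. The difference between MTX and vehicle was 0.32 ± 0.13 on the log2 scale in flox mice (adjusted p = 0.113 by edgeR) and 0.35 ± 0.13 in KO mice (adjusted p = 0.507), so neither passed the test. These 2 comparisons share no library. Averaged over both genotypes, a contrast added after the values were seen, the difference was 0.33 (95% interval 0.13 to 0.54, adjusted p = 0.0455 by edgeR), which lies below the fold limit, and 14.5% of all genes were called in that contrast. Of the 10 enzymes, 2 were called in it, both with a negative average: Cad (-1.31, adjusted p = 0.0267 by edgeR) and Pfas (-0.67, adjusted p = 0.0754). By genotype, MTX and vehicle differed by -2.84 in flox and 0.21 in KO mice for Cad, and by -1.40 and 0.06 for Pfas. These averages thus do not describe KO mice. For Paics, KO and flox mice differed by -0.17 (-0.46 to 0.12) under vehicle and -0.14 (-0.42 to 0.15) under MTX, and the interaction was 0.03 (-0.38 to 0.44).

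Pfas, on chromosome 11 (chr11:68985697-69008460, minus strand), encodes the synthase that adds a nitrogen to the growing purine ring. It read 39.3, 77.3 and 24.6 CPM in flox vehicle, 19.5, 20.2 and 21.7 in KO vehicle, 15.9, 20.1 and 17.7 in flox MTX and 21.1, 21.8 and 20.9 in KO MTX libraries. All flox vehicle libraries exceeded the other 9, whose values lay within 15.9 to 21.8 CPM. Pfas was 2.30-fold lower in KO than in flox mice under vehicle (-1.20 ± 0.32, adjusted p = 0.0155 by edgeR) and 2.64-fold lower under MTX in flox mice (-1.40 ± 0.32, adjusted p = 0.0141 by edgeR). Without flox vehicle replicate 3 both calls held, at -0.64 (adjusted p = 0.0379) and -0.84 (0.0283). With flox vehicle replicate 4 as the only library of its group, a choice made after the data were seen because replicates 1 and 3 hold the most epididymis transcripts, the differences were -0.26 (adjusted p = 0.386) and -0.46 (adjusted p = 0.283). That fit assumes that the lone library varies like those of the other groups, which supply all of its spread, and replicate 4 still held 2294 CPM of epididymis markers. The KO MTX libraries lay above all flox MTX libraries, with a difference of 0.25 (95% interval -0.44 to 0.94). That interval rests on a spread pooled over all 4 groups. The SD of Pfas was 27.2 CPM in flox vehicle, against 2.11 in flox MTX and 0.47 in KO MTX libraries.

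Adsl, which cleaves fumarate from intermediates at 2 points of the purine route, varied little. The libraries read 30.6, 25.3 and 28.3 CPM in flox vehicle, 25.9, 23.1 and 22.5 in KO vehicle, 29.4, 24.5 and 34.5 in flox MTX and 27.4, 27.7 and 26.6 in KO MTX. KO MTX lay wholly above KO vehicle, by 0.19 on the log2 scale (95% interval -0.12 to 0.50, adjusted p = 0.793 by edgeR), and the other groups compared overlapped. The 4 pairwise differences lay between -0.24 and 0.19 and none was called.

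The guanine branch starts with IMP dehydrogenase, which has 2 isoenzymes, Impdh1 and Impdh2; Impdh2 is the form that proliferating cells raise. Impdh1 (chr6:29200434-29216364, minus strand) read 47.3, 39.6 and 54.8 CPM in flox vehicle, 62.3, 60.3 and 68.5 in KO vehicle, 60.6, 48.7 and 73.5 in flox MTX and 63.9, 52.5 and 58.8 in KO MTX libraries. Under vehicle the KO libraries lay above all flox libraries, by 0.43 ± 0.17 on the log2 scale (1.35-fold, adjusted p = 0.0755 by edgeR), a change that passed the adjusted p but not the fold limit. In this comparison the groups did not overlap for 4 of the 10 enzymes, 1 higher and 3 lower, and for 48.1% of all genes. Under MTX the genotypes differed by -0.06 (95% interval -0.43 to 0.31), and MTX and vehicle by 0.37 (-0.0017 to 0.73, adjusted p = 0.147) in flox mice and by -0.13 (-0.49 to 0.24) in KO mice.

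Impdh2 (chr9:108560286-108565584, plus strand) showed the smallest relative range of the 10. Its levels were 51.1, 53.9 and 39.9 CPM in flox vehicle, 47.4, 51.6 and 58.3 in KO vehicle, 44.9, 45.4 and 41.0 in flox MTX and 56.4, 58.1 and 58.5 in KO MTX libraries. Under MTX the KO libraries lay above all flox libraries, by 0.40 ± 0.13 on the log2 scale (1.32-fold, unadjusted p = 0.0109, adjusted p = 0.121 by edgeR), and the groups did not overlap for 2 of the 10 enzymes (Impdh2 and Pfas) and 26.8% of all genes there. Under vehicle the difference was 0.12 (95% interval -0.17 to 0.40), and the interaction was 0.28 (-0.12 to 0.69, adjusted p = 0.494). Averaged over both treatments, again a contrast added later, the difference was 0.26 (0.06 to 0.46, adjusted p = 0.0529 by edgeR) and lay below the fold limit, with 28.5% of all genes called and Cad alone of the 10 enzymes (-1.72, adjusted p = 0.00334 by edgeR). Cad itself differed by -3.25 between KO and flox mice under vehicle and by -0.20 under MTX. Exons of Impdh2 share 48 bases with the oppositely oriented Ndufaf3.

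The 2 isoenzymes can be read against each other within a library. The ratio of Impdh1 to Impdh2, in counts per kb, was 0.86, 0.69 and 1.28 in flox vehicle, 1.23, 1.09 and 1.10 in KO vehicle, 1.26, 1.00 and 1.67 in flox MTX and 1.06, 0.84 and 0.94 in KO MTX libraries. In KO mice the ratios under MTX lay below all those under vehicle (p = 0.1 by a two-sided exact permutation test, which cannot go lower with 3 against 3). For Paics over Ppat, the flox MTX libraries (21.3, 14.9 and 25.7) lay above all flox vehicle libraries (11.9, 5.84 and 11.2; exact permutation p = 0.1). For Ctps over its paralog Ctps2, the groups overlapped in all 4 comparisons. Over the 12 comparisons of the 3 ratios the smallest adjusted p was 0.514 by the exact permutation test.

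**Figure D3:**
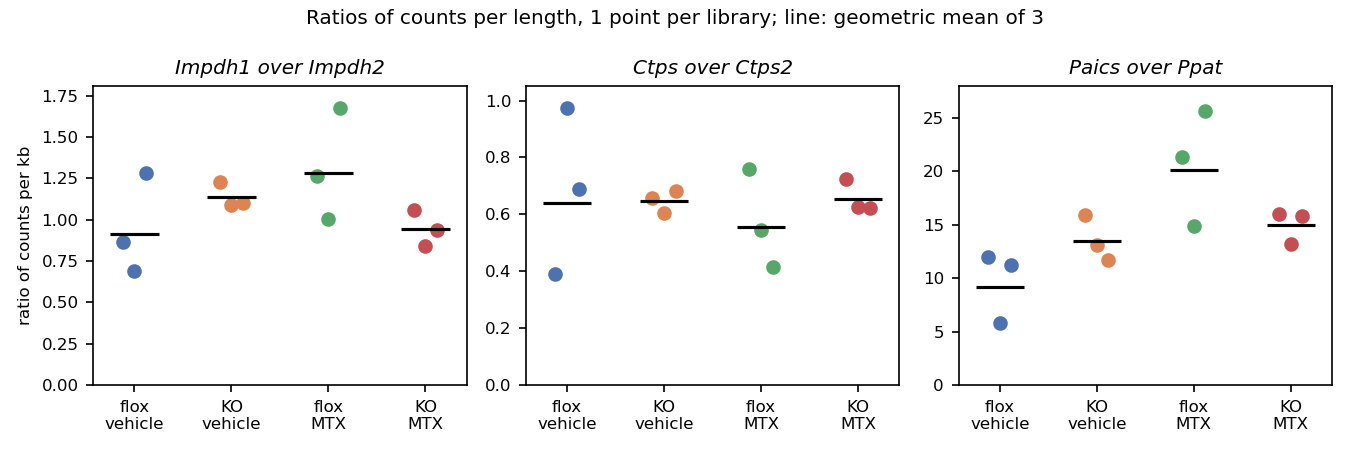
Ratio of counts per kb of 2 genes in each library (vertical axis, from 0), for Impdh1 over Impdh2, Ctps over Ctps2 and Paics over Ppat, by group, with a line at the geometric mean of 3 libraries. Paics over Ppat has its highest geometric mean in flox MTX, whose range (14.9 to 25.7) overlaps those of both KO groups, and Impdh1 over Impdh2 is lower in KO MTX than in KO vehicle libraries.

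Cad encodes the protein that joins the opening activities of pyrimidine synthesis in 1 chain, and it showed the largest differences of the set. It read 178, 399 and 75.0 CPM in flox vehicle, 23.1, 22.9 and 22.6 in KO vehicle, 36.9, 24.3 and 29.8 in flox MTX and 24.7, 29.8 and 24.9 in KO MTX libraries. The 3 flox vehicle libraries spanned 75.0 to 399 CPM and the other 9 only 22.6 to 36.9. Cad was 9.51-fold lower in KO than in flox mice under vehicle (-3.25 ± 0.47, adjusted p = 0.00281 by edgeR) and 7.17-fold lower under MTX than under vehicle in flox mice (-2.84 ± 0.46, adjusted p = 0.00499 by edgeR). Without flox vehicle replicate 3, the highest library, these values were -2.47 (adjusted p = 0.00655) and -2.06 (0.0116). With flox vehicle replicate 4 as the only library of its group, and the spread taken from the other groups as for Pfas, the values were -1.71 (adjusted p = 0.0165) and -1.30 (0.0482).

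The levels of Cad followed the order of the epididymis markers among the flox vehicle libraries, in which replicate 3 was highest and replicate 4 lowest for both. Flox MTX replicate 1, the only other library with epididymis markers above 100 CPM, also had the highest Cad of its group. Of the 10 enzymes, 3 (Cad, Pfas and Impdh2) had the order of the epididymis list and 3 (Paics, Impdh1 and Umps) the reverse order in these 3 libraries, against 28.1% and 18.6% of all genes tested. The part of epididymis and testis transcripts in the levels of Cad, Pfas and Ppat was not tested. Between KO MTX and flox MTX, which hold far less of these transcripts, Cad differed by -0.20 (95% interval -1.15 to 0.76), and between KO MTX and KO vehicle by 0.21 (-0.75 to 1.17), although every KO MTX library lay above every KO vehicle library (by library size alone these groups overlapped). Both intervals rest on a spread pooled over all 4 groups. The SD of Cad was 166 CPM in flox vehicle, against 0.25 in KO vehicle, 6.30 in flox MTX and 2.88 in KO MTX libraries.

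**Figure D4:**
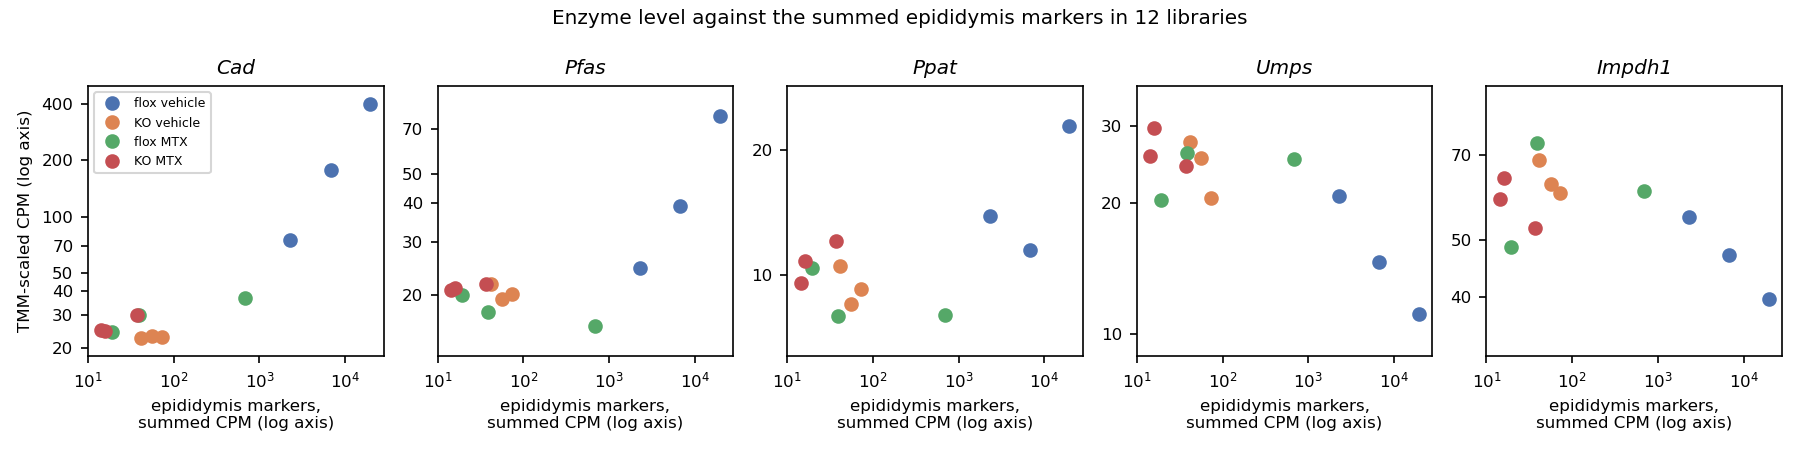
Level of Cad, Pfas, Ppat, Umps and Impdh1 in TMM-scaled CPM (vertical log axis) against the summed CPM of 35 epididymis markers (horizontal log axis), with 1 point per library. The flox vehicle libraries lie to the right, from 2294 to 19588 CPM, with Cad from 75.0 to 399 CPM and Umps from 20.8 down to 11.1 CPM.

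Dhodh (chr8:109591343-109608673, minus strand), the mitochondrial enzyme that oxidizes dihydroorotate and passes electrons to the respiratory chain, stayed within a narrow range. Its levels were 22.6, 20.7 and 14.9 CPM in flox vehicle, 17.6, 17.6 and 17.1 in KO vehicle, 20.7, 16.5 and 21.9 in flox MTX and 15.8, 14.7 and 16.9 in KO MTX libraries. The largest difference was between KO and flox under MTX, -0.32 (95% interval -0.70 to 0.06, adjusted p = 0.279 by edgeR), and these groups overlapped. In KO mice the MTX libraries lay below all vehicle libraries, by a difference of -0.14 (-0.52 to 0.24), and groups did not overlap for 4 of the 10 enzymes (Paics, Adsl and Cad higher, Dhodh lower) and 20.7% of all genes in that comparison.

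Umps (chr16:33954782-33967038, minus strand) completes UMP from orotate and was called in the direction opposite to Cad in both comparisons. It read 14.6, 11.1 and 20.8 CPM in flox vehicle, 25.3, 20.5 and 27.6 in KO vehicle, 25.2, 20.3 and 26.0 in flox MTX and 29.7, 24.3 and 25.6 in KO MTX libraries. The flox vehicle libraries were the lowest but for replicate 4, which lay just above the lowest KO vehicle and flox MTX libraries. Umps was 1.58-fold higher in KO than in flox mice under vehicle (0.66 ± 0.22, adjusted p = 0.0430 by edgeR) and 1.54-fold higher under MTX in flox mice (0.62 ± 0.22, adjusted p = 0.0690 by edgeR). The KO call was lost without flox vehicle replicate 1 (0.62, adjusted p = 0.114) or 3 (0.47, 0.128) and without KO vehicle replicate 3 (0.57, 0.140), and the MTX call without flox vehicle replicate 1 (0.59, 0.161) or 3 (0.43, 0.227) and without flox MTX replicate 1 (0.57, 0.143) or 4 (0.56, 0.135). Macrophage markers were higher in KO vehicle than in flox vehicle libraries too, as were those of fibroblasts (10 of 11 called higher and 1 lower) and endothelium (13 of 15 called higher). Under MTX in flox mice, fibroblast markers were called higher for 7 of 11, lymphocyte markers for 8 of 13 and endothelial markers for 0 of 15 (0 of 15 at an unadjusted p below 0.05). The lymphocyte sums were 37.0, 361 and 106 CPM in flox MTX replicates 1, 2 and 4, beside 23.9 to 51.7 CPM in flox vehicle. In KO against flox under vehicle, 1 of the 13 lymphocyte markers was called higher. Of 10 mesothelium markers, 7 were called higher and 2 lower under MTX in flox mice, and 1 higher and 2 lower in KO mice under vehicle. The part of these cell types in the level of Umps was not tested.

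Ctps (chr4:120539868-120570276, minus strand) turns UTP into CTP. It read 18.8, 25.7 and 27.2 CPM in flox vehicle, 22.5, 18.2 and 19.6 in KO vehicle, 29.4, 24.6 and 19.5 in flox MTX and 24.4, 21.4 and 20.6 in KO MTX libraries. All groups compared overlapped, the 4 pairwise differences lay between -0.25 and 0.14, and the adjusted p-values were 0.340 or more.

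The response of Cad to MTX differed between the genotypes in the interaction test: the difference between MTX and vehicle was 3.05 ± 0.63 higher on the log2 scale in KO than in flox mice (95% interval 1.68 to 4.43, adjusted p = 0.0848 by edgeR). This term uses the same flox vehicle libraries. Pfas gave 1.45 ± 0.44 (adjusted p = 0.175) and Ppat 1.06 ± 0.35 (adjusted p = 0.201), and neither was called by edgeR. The Cad call was lost in 10 of the 12 fits that left out 1 library, with adjusted p from 0.104 without flox vehicle replicate 3 (2.27) to 0.293 without KO MTX replicate 4 (3.08), and it held in the fits that left out flox vehicle replicate 4 or flox MTX replicate 1. With flox vehicle replicate 4 as the only library of its group, and the spread again taken from the other groups, it was 1.51 (adjusted p = 0.196).

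The other genes that feed, recycle or use nucleotides were read from 6 lists with 69 genes tested. In KO against flox under vehicle 16 of the 69 were higher and 10 lower (37.7% called, beside 31.7% of all genes), and in MTX against vehicle in flox mice 10 were higher and 8 lower (26.1%, beside 24.2%). KO against flox under MTX called 0 of the 69 with edgeR, with 19 at an unadjusted p below 0.05, MTX against vehicle in KO mice 0 with 3, and the interaction 0 with 11. DESeq2 was not read for these lists.

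Of 11 other genes of the purine route, 2 were higher and 2 lower in KO than in flox mice under vehicle. Prps2, which makes the activated ribose phosphate that Ppat uses, read 77.0, 139 and 51.1 CPM in flox vehicle and 30.7 to 39.95 CPM in the other 9 libraries, highest in flox vehicle as Cad and Pfas were. It was lower in KO mice under vehicle (-1.43, adjusted p = 0.00487) and under MTX in flox mice (-1.40, adjusted p = 0.00926). Gmps, which forms GMP after the Impdh step, was lower in KO mice under vehicle (-0.61, adjusted p = 0.0112), and Gmpr2, which turns GMP back into IMP, was higher (0.73, adjusted p = 0.00451). Adssl1, an adenylosuccinate synthase best known from muscle, was higher (2.85, adjusted p = 0.00788). Atic and Gart, the folate-dependent enzymes of the route, were singled out after their values were seen: Atic differed by 0.42 (adjusted p = 0.217) between MTX and vehicle in flox mice and by 0.27 (0.819) in KO mice, and Gart by -0.01 (0.978) and 0.19 (0.844).

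In purine salvage and breakdown, 3 of 13 genes tested were higher and 1 lower in KO than in flox mice under vehicle, and 4 were higher and 1 lower under MTX in flox mice. Aprt, which salvages adenine, was higher in both (2.10, adjusted p = 0.00393, and 1.07, adjusted p = 0.0645), as were Ada, which deaminates adenosine (1.43, 0.00977, and 1.19, 0.0333), and Dck, a deoxynucleoside kinase (0.86, 0.00833, and 0.89, 0.0128). Nt5e, the surface enzyme that makes adenosine from AMP, was lower in both (-3.03, adjusted p = 0.00315, and -2.81, adjusted p = 0.00551). Its levels were 41.4, 65.9 and 22.5 CPM in flox vehicle and 2.30 to 8.33 CPM in the other libraries, again highest where epididymis markers were highest.

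In pyrimidine salvage and breakdown, 2 of 13 genes were higher and 3 lower in KO mice under vehicle, and 1 was higher and 3 lower under MTX in flox mice. Tk1, the thymidine kinase of dividing cells, was higher in both (1.72, adjusted p = 0.00389, and 0.88, adjusted p = 0.0653), and Upp1, which splits uridine, in KO mice (1.62, 0.0113). Dpyd, the first enzyme of pyrimidine breakdown, was lower in both (-1.88, 0.00341, and -0.92, 0.0583), Uck1, which phosphorylates uridine and cytidine, was lower in KO mice (-0.93, 0.0709), and Cda (-2.12, 0.0107) and Tymp (-1.31, 0.0423) were lower under MTX in flox mice. Of 15 nucleotide kinases and CTP genes, Ak4 was lower (-2.57, 0.0034, and -2.54, 0.00547) and Nme4 higher (1.06, 0.0150, and 0.96, 0.0345) in both comparisons, Nme6 lower in both (-0.82, 0.0747, and -0.90, 0.0711), and Cmpk2 higher in KO mice (0.79, 0.0259). Ak4 read 7.10 to 24.7 CPM in flox vehicle and 1.56 to 3.21 CPM in the other libraries. Among the flox vehicle libraries, Dpyd, Ak4 and Nme6 had the order of the epididymis markers, as did 28.1% of all genes tested.

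Among 8 genes of deoxynucleotide supply, 3 were called higher and 1 lower in KO mice under vehicle, and 2 higher and 0 lower under MTX in flox mice (2 of the 8 at an unadjusted p below 0.05). Tyms, the thymidylate synthase that MTX affects through folate, read 4.94, 5.03 and 7.38 CPM in flox vehicle, 13.0, 12.5 and 15.5 in KO vehicle, 12.1, 10.99 and 8.74 in flox MTX and 14.9, 12.1 and 11.5 in KO MTX libraries, and was higher in KO mice under vehicle (1.24, adjusted p = 0.00356) and under MTX in flox mice (0.88, adjusted p = 0.0187). Samhd1, which breaks down deoxynucleotides and is rich in myeloid cells, was higher in both (1.38, 0.00823, and 1.02, 0.0423), Rrm2 of ribonucleotide reductase in KO mice (0.80, 0.0673), and Rrm2b was lower in KO mice (-0.66, 0.00414). Of the 25 proliferation markers, 20 were called higher and 0 lower in KO mice under vehicle (none of the 25 had a negative fold change). Under MTX in flox mice, 6 of the 25 were called higher. Macrophage markers were called higher for 20 of 20 in KO mice under vehicle and for 19 of 20 under MTX in flox mice. Their sums in flox MTX replicates 1, 2 and 4 were 4263, 8841 and 1139 CPM. Replicate 4 thus lay within the flox vehicle range of 991 to 1786 CPM. The part of dividing cells and macrophages in the levels of Tk1, Tyms, Rrm2 and Samhd1 was not tested.

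Of 9 transcription factors known to bind promoters of nucleotide synthesis genes, 4 were higher and 1 lower in KO mice under vehicle. Myc (1.31, adjusted p = 0.0120), its partner Max (0.78, 0.00397) and E2f1 (0.95, 0.00950) were higher, while Mycn, at 0.82, 2.20 and 1.01 CPM in flox vehicle and at most 0.60 CPM elsewhere, was lower (-1.72, 0.0246). Under MTX in flox mice, E2f2 (1.14, 0.0132) and E2f1 (0.69, 0.0536) were higher and Mycn lower (-2.15, 0.0177). Myc itself differed by 0.34 there (adjusted p = 0.488 by edgeR).

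For each enzyme, the gene whose log2 CPM followed it most closely over the 12 libraries was sought among all genes tested, as a description over libraries that share groups and scaling. Cad was followed most closely by Abca2 (Pearson r = 0.993), Pfas by Dnmbp (0.986), Umps by Ap1s1 (0.968), Impdh2 by Unc13a (0.966), Paics by Sptlc1 (0.961), Ppat by Marcksl1 (0.954), Dhodh by Ppp1r37 (0.951), Adsl by Trappc12 (0.948) and Impdh1 by Ctnna1 (0.938). Ctps had the weakest partner, Cdh2 (0.814).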

How the data were processed

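RNA of eWAT from 12 mice was sequenced. Per the labels poly(A) RNA was read with pairs of 150 bases, while the study's methods give ribodepletion and pairs of 100 bases, and which applies is not settled. The authors trimmed reads with Trimmomatic 0.36, aligned them to GRCm38 (mm10) with STAR 2.5.2b and counted them per gene of Ensembl release 79 with featureCounts (Subread 1.5.2), and deposited whole read counts without normalization. Neither the strand setting nor how multiply mapped reads were handled is stated. Labels put each library in 1 of 4 groups. p-values of the main edgeR fit rest on the spread between mice within groups, pooled over the 4 groups of 3 mice and drawn toward that of other genes. Intervals and p-values of comparisons without the flox vehicle group thus also carry the spread of its libraries.

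Computed here with edgeR 4.0.16 in R 4.3.3 were TMM factors, a filter by group (filterByExpr, which kept 18702 genes) and the quasi-likelihood F-test on a fit of all 12 libraries with a term for each group. Adjustment was by Benjamini-Hochberg across every gene tested. A call needed an adjusted p below 0.1 and a fold of 1.5. SE is the log2 fold change divided by the square root of F. CPM were TMM-scaled, except for marker sums, taken as shares of the total count. Levels per kb used exon lengths of GENCODE M21. Ratios were compared with exact permutation tests (scipy 1.17.1). DESeq2 1.42.0 and the other alternatives are given at the end. Replicate numbers were not used for pairing: deviations of 12 same-numbered pairs had a median correlation of 0.04 (-0.27 to 0.25), beside 0.01 for 42 other pairs. The steps were tested on simulated data. The 10 genes, the lists and the tests were chosen with earlier results of these data known. All 10 genes are named, and of each list up to 4 genes per comparison, the called ones of largest change or, with none called, those of smallest p, with the exceptions given as such. Of one list, Pnp was not analysed here. Counts of 0 allow up to 3 counts per library, a limit for counting error only.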

Additional observations from a re-analysis of the deposited data

Results flagged for a closer look

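The response of Cad to MTX differed between the genotypes by the interaction test of edgeR: the log2 difference between MTX and vehicle was 3.05 higher in KO than in flox mice (adjusted p = 0.0848), with -2.84 in flox and 0.21 in KO mice. All 3 flox MTX libraries lay below all 3 flox vehicle libraries, and all 3 KO MTX libraries above all 3 KO vehicle libraries (not so when scaled by library size alone). The call was lost in 10 of the 12 fits without 1 library, with the replicate block (adjusted p = 0.197) and at an adjusted p limit of 0.05, and the flox vehicle libraries that enter it held 2294 to 19588 CPM of epididymis markers.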

How the results depend on the processing

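Counts of called enzymes in KO against flox under vehicle (4), MTX against vehicle in flox (4) and the interaction (1) moved under these settings. Asking for a log2 fold change of 1.5 left 1 enzyme (Cad) in each of KO against flox under vehicle and MTX against vehicle in flox, and called 3026 and 2791 of all genes. Flox vehicle replicate 4 as the only library of its group, chosen after the data were seen and with the spread taken from the other groups, left 1, 1 and 0 enzymes, with 1415, 580 and 5 genes, and 17 genes in KO against flox under MTX. The libraries of the comparison alone left 2 enzymes in MTX against vehicle in flox (Ppat, adjusted p = 0.152, and Umps, 0.233, were lost), with 2167 genes, and called 4 genes in KO against flox under MTX and 3 in MTX against vehicle in KO. At least 10 counts in every library gave 2158 genes in MTX against vehicle in flox (Umps lost, 0.55, adjusted p = 0.119), 1315 in KO against flox under MTX, and in the interaction 0 enzymes (Cad 3.12, adjusted p = 0.208) and 1 gene. An adjusted p below 0.05 left 0 enzymes and 33 genes in the interaction. DESeq2 gave 3 enzymes and 1248 genes there (Cad, Pfas with adjusted p = 0.0495 and Ppat with 0.0757), 2769 genes in KO against flox under MTX and 281 in MTX against vehicle in KO. Without a filter on low counts, 875, 20 and 472 genes were called in KO against flox under MTX, MTX against vehicle in KO and the interaction. The cause of these shifts was not tested. Some of these settings also use fewer libraries or genes.

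What the replicate numbers stand for is not stated, and the weak correlation of same-numbered pairs does not exclude pairing. A fit with the replicate number as a block called 2769 genes in MTX against vehicle in flox. In the interaction it called 0 genes and 0 enzymes (Cad 2.79, adjusted p = 0.197). That fit also lost Umps in MTX against vehicle in flox (0.64, adjusted p = 0.121) and changed no other call of the 10.

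Leaving out 1 library at a time gave 2 to 4 called enzymes in KO against flox under vehicle, 2 to 4 in MTX against vehicle in flox and 0 to 2 in the interaction, and 4640 to 6828, 2216 to 5996 and 5 to 1371 genes, with 0 to 4063 genes in KO against flox under MTX and 0 to 215 in MTX against vehicle in KO. Both counts of 2 enzymes and the 2216 genes came without flox vehicle replicate 3, the count of 2 in the interaction and the 1371 genes came when flox vehicle replicate 4 was absent, and the 215 genes without KO vehicle replicate 3. For KO against flox under MTX, dropping flox MTX replicate 2 gave the 4063 genes, while 1028 were called once flox vehicle replicate 3 was dropped and 76 once flox MTX replicate 1 was. Uncalled differences close to 0 changed sign over these fits: in KO against flox under MTX, Adsl (-0.23 to 0.021), Impdh1 (-0.20 to 0.10) and Ctps (-0.28 to 0.025); in MTX against vehicle in flox, Adsl (-0.052 to 0.20), Dhodh (-0.13 to 0.15) and Ctps (-0.12 to 0.18); and in the interaction, Paics (-0.063 to 0.14), Adsl (-0.0018 to 0.24) and Ctps (-0.048 to 0.25). Cad in the interaction ranged from 2.27 to 3.45.

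Other sign changes were also of uncalled differences. Scaling by library size alone turned Paics (0.049), Adsl (0.076), Impdh1 (0.13) and Ctps (0.019) in KO against flox under MTX, Adsl (-0.15), Dhodh (-0.19) and Ctps (-0.16) in MTX against vehicle in flox and Dhodh (0.029) in the interaction, and it moved the median of all genes from -0.04 to 0.12, from 0.05 to -0.15 and from -0.05 to 0.13; the share of called genes that were higher in MTX against vehicle in flox went from 33.4% to 17.6%, and Umps was no longer called there (0.42, adjusted p = 0.162). With this scaling the groups of KO against flox ceased to overlap for Paics, Adsl and Umps under vehicle and for Umps under MTX. At least 10 counts in every library turned Adsl (-0.010), Dhodh (-0.059) and Ctps (-0.039) in MTX against vehicle in flox. Flox vehicle replicate 4 alone turned Dhodh (0.23) in KO against flox under vehicle, Impdh2 (0.14) and Ctps (-0.15) in MTX against vehicle in flox and Impdh2 (-0.00041) in the interaction, and no filter turned Paics (-4.3e-05) there. Depth was 128 counts or more for every enzyme in every library.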
